A study of Mus musculus with 8 samples.

Results

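The 42 genes described here encode proteins of the postsynaptic density and the adhesion molecules that hold the pre- and postsynaptic membranes together. They were chosen by name, with earlier results of these data known. They include all genes found under these names among the 33971 genes of the table, 1 row each. Their RNA was measured in the whole brain of wild-type mouse embryos at E14.5. Wild-type females were mated with wild-type males and received from the mating day either a choline-deficient diet (CDD) or normal chow (ND), with 4 embryos collected for each diet. All 8 brains are of the same genotype and stage, so the diet of the mother is the one labelled difference between the groups. One supplementary legend of the study places the start of the CDD before mating. The numbers of dams and litters were not stated, so the p-values measure the spread between these brains, which may include brains of the same litter. The diet was given to the mothers, so a difference between litters may not be told apart from one of diet. Poly-A RNA was sequenced in bulk, and fewer cells of a type and less RNA per cell cannot be told apart in such samples.

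At an excitatory synapse, glutamate receptors sit in a dense protein layer under the postsynaptic membrane. MAGUK proteins (*Dlg1* to *Dlg4*) bind receptors and adhesion molecules, SAPAP proteins (*Dlgap1* to *Dlgap4*) link the MAGUKs to Shank proteins, and Homer proteins link Shanks to metabotropic receptors. The kinase CaMKII is activated by calcium-bound calmodulin, and neurogranin holds calmodulin when calcium is low. Across the cleft, presynaptic neurexins and LAR-type receptor phosphatases bind postsynaptic partners such as neuroligins, LRRTM, Slitrk and IL1RAPL1 proteins. Few mature synapses exist in the embryonic brain, where many of these genes are already transcribed in young neurons.

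Library totals ranged from 31770217 to 43121170 counts. All 42 members passed edgeR's filter on low counts, with 84 to 70305 counts per gene and brain. Levels are given as CPM, the count relative to the TMM-scaled library size, and differences as the log2 fold change of CDD over ND from edgeR's quasi-likelihood test, with p-values adjusted over all 19367 genes tested and called under 0.05. The neuronal and neural progenitor markers were abundant in every brain, as the tissue label says. CDD replicate 2 stood apart in genes of the caudal hindbrain and spinal cord: the 6 genes of that list found in the table summed to 100.4 CPM there and to 3.74 to 7.70 CPM in the other brains. ND replicate 3 held more blood RNA, with 2985 CPM over 9 erythroid genes against 760 to 1615 CPM elsewhere. CDD replicate 1 held more choroid plexus RNA, with 490.1 CPM over 4 genes against 179.4 to 320.6 CPM elsewhere.

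Of the 42 members, 8 fell in CDD brains and 1 rose. The 8 were *Nrgn*, *Camk2b*, *Camk2g*, *Dlgap1*, *Dlgap3*, *Dlg2*, *Shank3* and *Lrrtm1*, and the 1 that rose was *Ptprf*. Over all genes tested, 4.59% were called lower and 4.24% higher. The lower calls lay mostly inside the postsynaptic cell: among the 19 scaffold and kinase genes 7 fell and 0 rose, and among the 23 membrane proteins 1 fell and 1 rose. The difference between these groups of genes was not tested. At an unadjusted p under 0.05, 12 members were lower and 2 higher, against 12.1% and 11.8% of all genes tested. The log2 fold changes ran from −0.81 (*Nrgn*) to 0.19 (*Ptprf*), with a median of −0.08 over the members and of −0.0038 over all genes tested, and 33 of the 42 were below 0. The median was −0.12 for the scaffold and kinase genes and −0.06 for the membrane proteins. Among other genes of these kinds, described below, 2 of 15 postsynaptic and 4 of 36 adhesion genes fell. Their medians lay in the other order, at −0.02 and −0.09. In 8 members all CDD brains lay below all ND brains and in 1 all lay above, against 7.39% and 7.65% of all genes tested. The number of calls depended on single ND brains, over all genes as well as among the members. Without ND replicate 3, the brain with the most erythroid RNA, 4 members were called lower and 0 higher, against 1.36% and 1.04% of all genes tested. Without ND replicate 4 the members' calls were 5 and 0, against 1.72% and 1.42%. The CDD group also had 1 low brain, CDD replicate 1, the brain with the most choroid plexus RNA. It held the lowest value of all 8 brains in 21 of the 42 members. Without it the median log2 fold change of the members was −0.04, with 30 members below 0. CDD replicate 4 held the highest value of all 8 brains in 11 members, and ND replicate 3 in 12. Without CDD replicate 4 the median was −0.095, with 35 members below 0.

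**Figure D1:**
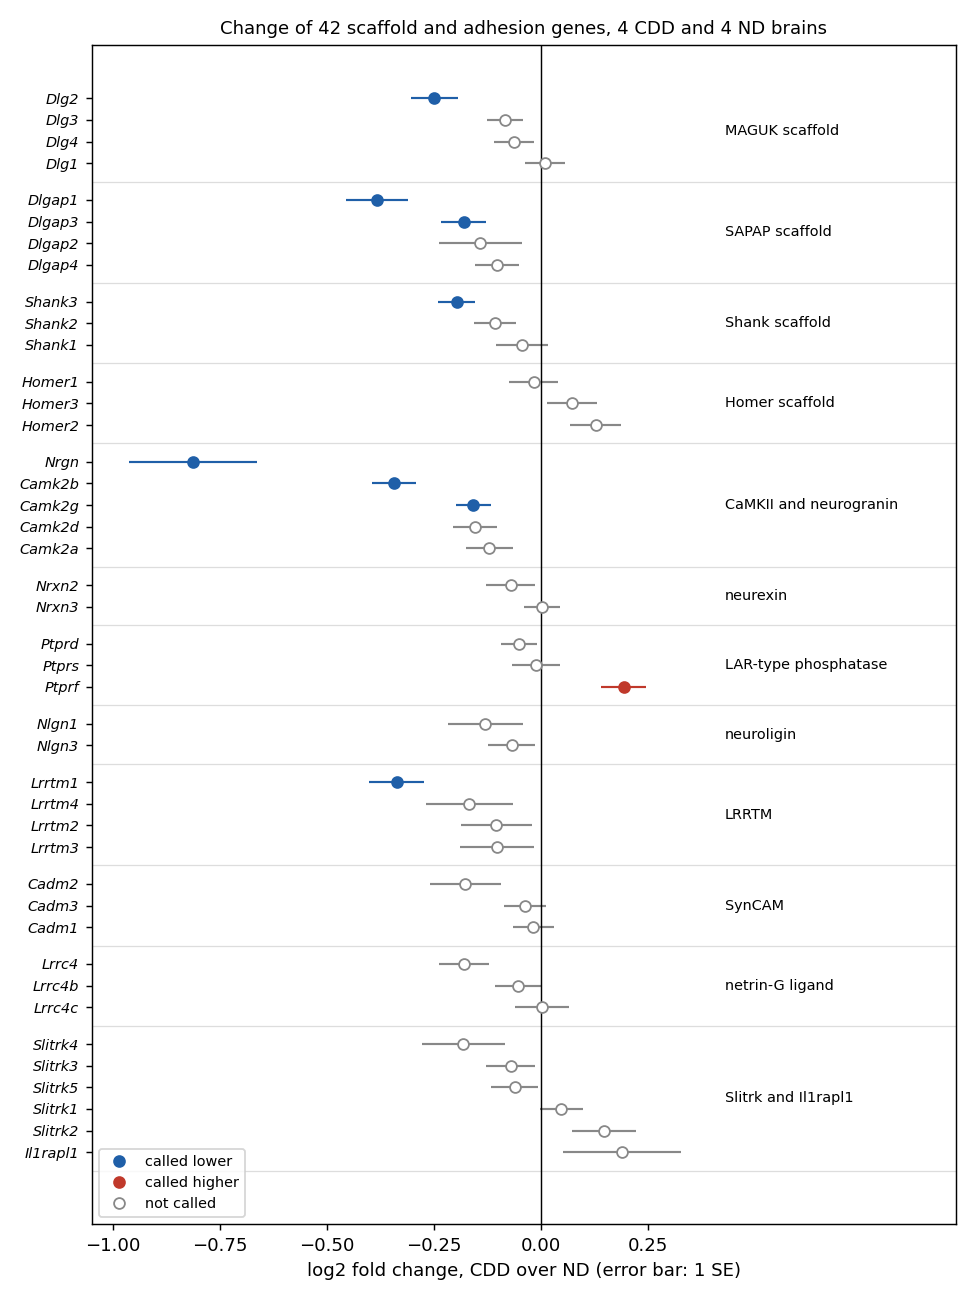
The log2 fold change of CDD over ND is plotted on the horizontal axis for each of the 42 genes, grouped by role, with bars of 1 standard error. Blue points are the 8 genes called lower, the red point is *Ptprf*, and open points were not called. *Nrgn* lies farthest to the left at −0.81, and all 5 genes of the CaMKII and neurogranin group lie below 0.

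The promoter sequences of the members with the 4 largest falls, and of *Ptprf*, are shown as background to these changes. RefSeq promoters (build GRCm38.p6) were matched by symbol for 31 of the 42 members, and the first listed window was used. Each line gives the last 100 bases before the annotated transcript start, 5′ to 3′ on the strand of the gene, with matches to the Sp1 box (GGGCGG, or CCGCCC on the other strand) in capitals.
Nrgn, chr9:37552746-37552845, minus strand: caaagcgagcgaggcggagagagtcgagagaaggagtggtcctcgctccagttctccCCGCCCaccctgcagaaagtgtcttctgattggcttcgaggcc
Dlgap1, chr17:69968973-69969072, plus strand: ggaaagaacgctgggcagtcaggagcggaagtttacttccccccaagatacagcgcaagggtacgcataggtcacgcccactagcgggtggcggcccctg
Camk2b, chr11:6065749-6065848, minus strand: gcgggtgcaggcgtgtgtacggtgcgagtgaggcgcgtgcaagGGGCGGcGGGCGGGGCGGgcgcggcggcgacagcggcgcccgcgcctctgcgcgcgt
Lrrtm1, chr6:77242377-77242476, plus strand: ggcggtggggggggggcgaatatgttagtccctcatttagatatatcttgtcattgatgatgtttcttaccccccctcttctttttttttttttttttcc
Ptprf, chr4:118291398-118291497, minus strand: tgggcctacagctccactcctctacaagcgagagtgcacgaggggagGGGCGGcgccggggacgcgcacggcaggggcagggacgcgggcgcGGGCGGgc
The Sp1 box, bound by a general activator of GC-rich promoters, occurred in these 100 bases of *Nrgn*, *Camk2b* and *Ptprf* and not in those of *Dlgap1* or *Lrrtm1*. In the whole 250 bases before the start, on both strands, it was found in 11 of 31 members (35.5%), in 3 of the 7 lower members with a sequence and in 56.6% of the 12823 tested genes with one. The E-box CATCTG, of the type that the proneural factors Neurog2 and Neurod1 bind, was found in 6 of 31 members (19.4%), including *Dlgap3*, *Dlg2* and *Nrgn*, and in 10.5% of tested genes. The E-box CAGCTG was found in 6.45% of members and 12.2% of tested genes. TGACG, the core of the cyclic AMP response element, was found in 9.68% and 25.6%, the TATA box TATAAA in 3.23% and 6.78%, and GGACAGC, one arm of the site of the neuronal gene repressor REST, in 0 members and 6.25%. None of these strings contains another. The promoters of members had a median GC content of 58.0%, against 59.6% for tested genes, and a median ratio of observed to expected CpG of 0.46 against 0.696. A match is a description of the letters and not a site or a cause.

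Neurogranin and the CaMKII genes held 3 of the 8 lower calls and 5 of 5 members below 0. *Nrgn* (ENSMUSG00000053310, chromosome 9, 37455788 to 37464200, minus strand, build not named) encodes the small neuronal protein that binds calmodulin. It measured 3.56, 2.72, 4.48 and 2.53 CPM in CDD replicates 1 to 4 and 5.68, 6.35, 5.90 and 5.65 CPM in ND replicates 1 to 4. All CDD brains lay below all ND brains, and CDD replicate 4 was the lowest. *Nrgn* fell by 0.81 on the log2 scale (SE 0.15, edgeR adjusted p = 0.00344), the largest change of the 42 in either direction. It rests on the smallest counts among the called members, 84 to 204 reads per brain. With any 1 brain left out the gene was called each time, at log2 fold changes of −0.71 or lower.

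*Camk2b* (ENSMUSG00000057897, chromosome 11, 5919644 to 6016362, minus strand) encodes the beta subunit of CaMKII, which also binds actin filaments. It measured 160.3, 167, 173 and 166 CPM in CDD replicates 1 to 4 and 207, 189, 227 and 221 CPM in ND replicates 1 to 4. The CDD brains were within a narrow band below all ND brains, and ND replicate 2 was the nearest to them. *Camk2b* fell by 0.34 on the log2 scale (SE 0.052, edgeR adjusted p = 0.00101) and was called with each brain left out. *Camk2g* (ENSMUSG00000021820, chromosome 14, 20784943 to 20844156, minus strand) encodes the gamma subunit, one of the broadly expressed forms. It measured 110.5, 119, 117 and 112 CPM in CDD replicates 1 to 4 and 126, 123, 132 and 131 CPM in ND replicates 1 to 4, again without overlap. It fell by 0.16 (SE 0.041, edgeR adjusted p = 0.0222), and the call was lost without CDD replicate 1 or without ND replicates 1, 3 or 4. The alpha subunit gene *Camk2a*, which dominates in the adult forebrain, and the delta subunit gene *Camk2d* were not called, at log2 fold changes of −0.12 (SE 0.054, edgeR adjusted p = 0.183) and −0.15 (SE 0.051, edgeR adjusted p = 0.0646).

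The SAPAP scaffolds held 2 of the lower calls, and all 4 genes were below 0. *Dlgap1* (ENSMUSG00000003279, chromosome 17, 70276068 to 71128408, plus strand) measured 41.5, 49.7, 50.2 and 47.6 CPM in CDD replicates 1 to 4 and 64.6, 53.0, 61.8 and 67.1 CPM in ND replicates 1 to 4. The lowest ND brain, replicate 2, was above the highest CDD brain, replicate 3. *Dlgap1* fell by 0.38 on the log2 scale (SE 0.072, edgeR adjusted p = 0.00497) and was called with each brain left out. *Dlgap3* (ENSMUSG00000042388, chromosome 4, 127062997 to 127130815, plus strand) measured 80.5, 95.7, 91.8 and 87.2 CPM in CDD replicates 1 to 4 and 98.0, 95.1, 106 and 103 CPM in ND replicates 1 to 4. CDD replicate 2 was above ND replicate 2, so the diets overlapped by that pair of brains. *Dlgap3* fell by 0.18 (SE 0.052, edgeR adjusted p = 0.0381), the call nearest to the threshold, and it was lost without CDD replicates 1 or 4 and without ND replicates 1, 3 or 4. *Dlgap2* and *Dlgap4* were not called, at −0.14 (SE 0.098, edgeR adjusted p = 0.412) and −0.10 (SE 0.051, edgeR adjusted p = 0.237).

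Of the 4 MAGUK genes 1 fell. *Dlg2* (ENSMUSG00000052572, chromosome 7, 90125880 to 92098455, plus strand), whose product anchors NMDA receptors and potassium channels, measured 97.3, 116, 103 and 117 CPM in CDD replicates 1 to 4 and 127, 123, 132 and 133 CPM in ND replicates 1 to 4. The CDD brains formed an upper pair, replicates 2 and 4, and a lower pair, replicates 1 and 3, all below the ND brains. *Dlg2* fell by 0.25 on the log2 scale (SE 0.054, edgeR adjusted p = 0.00957), and the call was lost without ND replicate 3. *Dlg1*, *Dlg3* and *Dlg4*, the last of which encodes the most abundant scaffold of the adult postsynaptic density, had log2 fold changes of 0.01, −0.08 and −0.06, and the lowest edgeR adjusted p of them was 0.235.

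Of the 3 Shank genes 1 fell as well. *Shank3* (ENSMUSG00000022623, chromosome 15, 89383826 to 89444464, plus strand), the master scaffold that joins SAPAP to Homer and actin regulators, measured 94.7, 94.4, 102 and 101 CPM in CDD replicates 1 to 4 and 113, 106, 116 and 115 CPM in ND replicates 1 to 4. No CDD brain reached the lowest ND brain, replicate 2. *Shank3* fell by 0.20 (SE 0.043, edgeR adjusted p = 0.00957), and the call was lost without ND replicates 3 or 4. *Shank2* and *Shank1* were at −0.11 (SE 0.049, edgeR adjusted p = 0.185) and −0.04 (SE 0.061, edgeR adjusted p = 0.72). The Homer genes were the one scaffold group with no call and with a median above 0 (0.07). *Homer3*, the Homer gene with the highest level per length, measured 34.6, 36.4, 37.1 and 34.2 CPM in CDD replicates 1 to 4 and 31.2, 36.1, 33.6 and 34.4 CPM in ND replicates 1 to 4. Both diets overlapped, at a log2 fold change of 0.07 (SE 0.058, edgeR adjusted p = 0.484). In the annotation used here (GENCODE M21), 25.4% of the exon bases of *Homer3* also lie in exons of *Ddx49* on the other strand. For the called members such an overlap with any one gene was at most 2.95%, in *Shank3*. *Homer1* and *Homer2* were at −0.02 and 0.13, and *Homer2* had an edgeR adjusted p of 0.201.

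**Figure D2:**
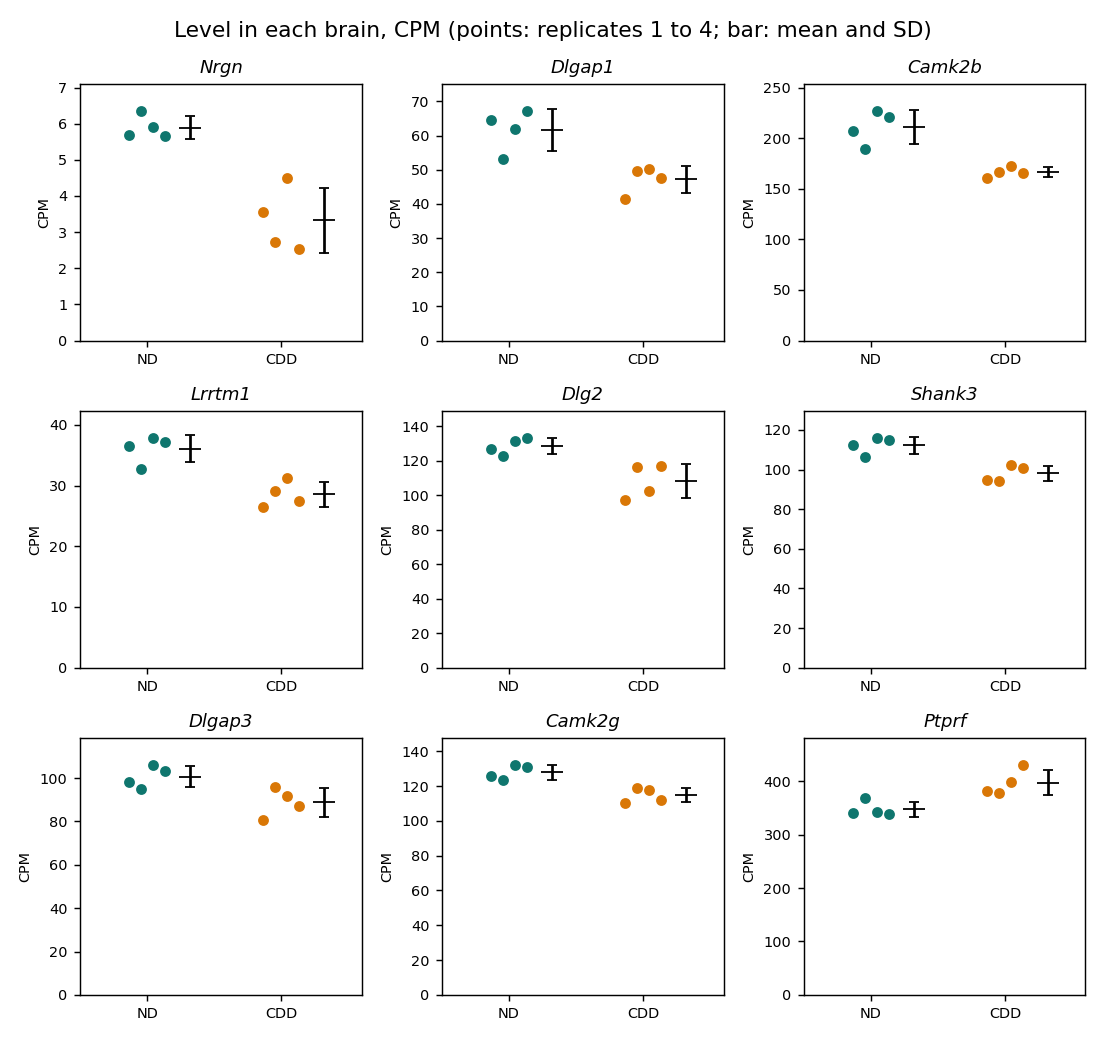
The vertical axis of each panel gives CPM from 0, with 1 point per brain and the mean and SD of the 4 brains beside it, for the 9 called members in order of fold change. Each CDD point lies below each ND point in the panels of *Nrgn*, *Dlgap1*, *Camk2b*, *Lrrtm1*, *Dlg2*, *Shank3* and *Camk2g*, the diets overlap in that of *Dlgap3*, and *Ptprf* is higher in CDD brains.

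On the presynaptic side of the adhesion complexes, the single call was a rise. *Ptprf* (ENSMUSG00000033295, chromosome 4, 118065410 to 118148602, minus strand) encodes LAR, a receptor phosphatase of axons and growing neurites that is also made by cells other than neurons. It measured 382, 379, 399.6 and 429.8 CPM in CDD replicates 1 to 4 and 339.9, 369, 343 and 339 CPM in ND replicates 1 to 4. ND replicate 2 was above the other ND brains, and all CDD brains were above it. *Ptprf* rose by 0.19 on the log2 scale (SE 0.052, edgeR adjusted p = 0.0255), and the call was lost without ND replicates 1, 3 or 4. Its relatives *Ptprs* and *Ptprd* were not called, at −0.01 (SE 0.056, edgeR adjusted p = 0.931) and −0.05 (SE 0.042, edgeR adjusted p = 0.502). Of the neurexins, *Nrxn2* measured 373, 459, 425 and 436 CPM in CDD replicates 1 to 4 and 447, 431, 456 and 444 CPM in ND replicates 1 to 4. CDD replicate 1 was the lowest brain and CDD replicate 2 the highest, at a log2 fold change of −0.07 (SE 0.057, edgeR adjusted p = 0.495). *Nrxn3* was at 0.0019, with an edgeR adjusted p of 0.986.

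Among the postsynaptic adhesion genes *Lrrtm1* was the one called. *Lrrtm1* (ENSMUSG00000060780, chromosome 6, 77219672 to 77234774, plus strand) encodes a leucine-rich repeat protein that binds neurexins. It measured 26.4, 29.1, 31.2 and 27.4 CPM in CDD replicates 1 to 4 and 36.6, 32.8, 37.8 and 37.1 CPM in ND replicates 1 to 4. The highest CDD brain, replicate 3, was below the lowest ND brain, replicate 2. *Lrrtm1* fell by 0.34 on the log2 scale (SE 0.065, edgeR adjusted p = 0.00428) and was called with each brain left out. *Lrrtm2*, *Lrrtm3* and *Lrrtm4* were at −0.10, −0.10 and −0.17, with edgeR adjusted p-values of 0.486, 0.512 and 0.34. The neuroligins, which also bind neurexins, had no call. *Nlgn3* measured 42.5, 49.3, 46.1 and 46.9 CPM in CDD replicates 1 to 4 and 49.9, 45.4, 49.0 and 49.5 CPM in ND replicates 1 to 4. The diets overlapped, at a log2 fold change of −0.07 (SE 0.055, edgeR adjusted p = 0.489), and 41.2% of its exon bases also lie in exons of *Gm21986* on the same strand. *Nlgn1* was at −0.13 (SE 0.087, edgeR adjusted p = 0.405).

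The netrin-G ligand genes (*Lrrc4*, *Lrrc4b*, *Lrrc4c*), whose products bind netrin-G proteins or LAR-type phosphatases, had no call. *Lrrc4* measured 29.9, 34.0, 32.8 and 33.9 CPM in CDD replicates 1 to 4 and 35.7, 37.4, 36.5 and 38.2 CPM in ND replicates 1 to 4. The diets did not overlap, and *Lrrc4* was the uncalled member nearest to the threshold. Its log2 fold change was −0.18 (SE 0.057, edgeR adjusted p = 0.0572). *Lrrc4b* measured 295, 349, 329 and 355 CPM in CDD replicates 1 to 4 and 343, 345, 350.1 and 338 CPM in ND replicates 1 to 4. CDD replicate 1 was the lowest brain, and both diets overlapped, at a log2 fold change of −0.05 (SE 0.054, edgeR adjusted p = 0.612), which was 0.0043 without that brain. *Lrrc4c* was at 0.0036, with an edgeR adjusted p of 0.983.

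SynCAM proteins (*Cadm1* to *Cadm3*) are immunoglobulin-type molecules that bind each other across the cleft, and none of their genes was called. *Cadm3* measured 277, 321, 302 and 290.1 CPM in CDD replicates 1 to 4 and 300.0, 300.1, 308 and 313 CPM in ND replicates 1 to 4. The diets overlapped, at a log2 fold change of −0.04 (SE 0.049, edgeR adjusted p = 0.717). *Cadm1* and *Cadm2* were at −0.02 and −0.18, with edgeR adjusted p-values of 0.877 and 0.221. Slitrk proteins and IL1RAPL1 bind LAR-type phosphatases from the postsynaptic side, and none of these 6 genes was called. *Slitrk5* measured 47.0, 52.7, 45.6 and 52.4 CPM in CDD replicates 1 to 4 and 52.1, 49.5, 51.4 and 53.3 CPM in ND replicates 1 to 4, with overlap and a log2 fold change of −0.06 (SE 0.055, edgeR adjusted p = 0.554). The other Slitrk genes ran from −0.18 (*Slitrk4*) to 0.15 (*Slitrk2*). *Il1rapl1* had the highest log2 fold change among the uncalled members, 0.19, and its SE of 0.14 was among the widest (edgeR adjusted p = 0.437). *Il1rapl1*, *Slitrk2*, *Slitrk4*, *Nlgn3* and *Dlg3* are X-linked. *Xist*, which is transcribed from the inactive X chromosome of females, was at 1611 to 1700 CPM in CDD replicates 2 and 4 and ND replicate 4 and at most 0.351 CPM in the other brains. With *Xist* as a covariate, 11 members were called lower and 1 higher, against 1004 and 836 of the 19367 genes tested. None of these X-linked genes was among them. The CDD brains with high *Xist*, replicates 2 and 4, were also the upper pair of CDD brains in *Dlg2*, which lies on chromosome 7. The part of sex itself in the values of *Dlg2* and of the X-linked genes was not tested.

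Compared per length, the members spanned a wide range of levels. Levels per length are CPM per kb of the gene model listed with the counts. In ND brains *Lrrc4b* was the highest at 117 ± 1.65 (mean ± SD, n = 4), followed by *Ptprs* at 101 ± 4.36. *Shank1* (43.6 ± 2.07), *Dlgap4* (43.1 ± 0.73) and *Cadm3* (42.1 ± 0.86) came next, and *Ptprf* followed at 38.0 ± 1.54. The lowest were *Il1rapl1* (0.588 ± 0.018), *Lrrtm4* (1.18 ± 0.093), *Slitrk4* (1.68 ± 0.14) and *Dlgap2* (1.87 ± 0.18). The members that fell were spread over this order, from *Camk2b* at 23.1 ± 1.82 in ND and 18.2 ± 0.55 in CDD brains, through *Shank3* at 12.2 ± 0.46 and 10.6 ± 0.43, to *Dlgap1* at 3.45 ± 0.34 and 2.64 ± 0.22. *Nrgn* was at 4.06 ± 0.22 in ND and 2.29 ± 0.61 in CDD brains.

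**Figure D3:**
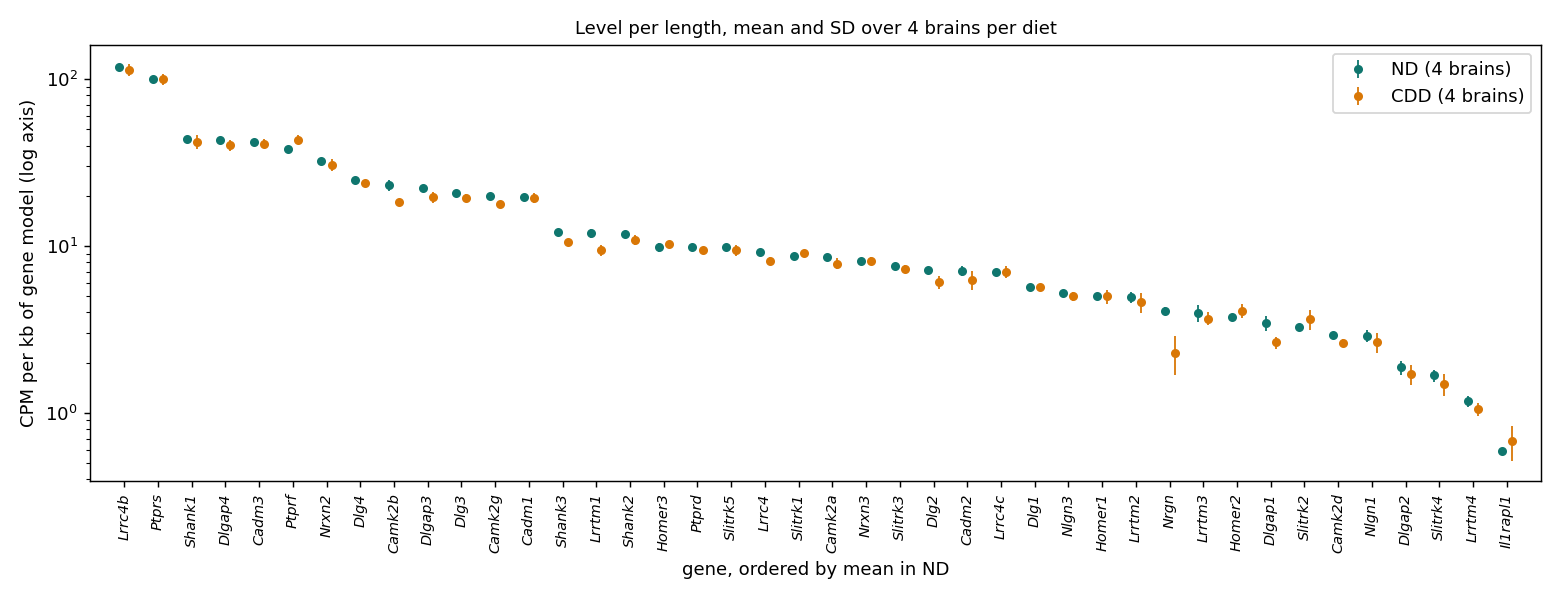
Levels per length (CPM per kb, log axis) are plotted for the 42 genes in order of their ND mean, as mean and SD over 4 brains for each diet. *Lrrc4b* and *Ptprs* stand above the rest near 117 and 101, *Il1rapl1* is lowest at 0.588, and the gap between the diets is widest for *Nrgn*.

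Within families, the share of each gene in the summed level per length shows how the make-up differed, as a description without a test. *Camk2b* gave 42.3% ± 1.42 of the CaMKII RNA in ND brains and 39.1% ± 0.216 in CDD brains (SD, n = 4), with no overlap between the diets, and *Camk2g* gave 36.7% and 38.4%. The alpha subunit gene gave 15.7% in ND and 16.8% in CDD brains, so *Camk2b* and *Camk2g* made up most of the CaMKII RNA in both diets. *Lrrtm1* gave 54.2% of the LRRTM RNA in ND and 50.3% in CDD brains, and *Ptprf* gave 25.6% and 28.5% of the RNA of the 3 LAR-type phosphatases. *Dlg2* gave 12.3% of the RNA of *Dlg1* to *Dlg4* in ND and 11.0% in CDD brains, where *Dlg4* gave 42.7% and 43.3%. Per length, *Dlgap1* was a minor SAPAP gene, at 4.88% in ND and 4.12% in CDD brains, while *Dlgap4* gave 61.0% and 62.6%. The listed gene model of *Dlgap1* has 17890 bases, against 4521 to 8451 for the other SAPAP genes, and a longer model lowers this share. *Shank3* gave 18.0% and 16.7% of the Shank RNA, most of which came from *Shank1*.

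Members were long genes. Their median span on the chromosome was 90.0 kb, against 17.7 kb for all genes tested, and 20 of 42 (47.6%) spanned more than 100 kb, against 12.4%. The longest was *Ptprd*, at 2271 kb, and the shortest *Slitrk1*, at 5.36 kb. Their gene models had a median of 8934 bases against 3733. With the fold changes corrected for gene length, 9 members were called lower and 1 higher, against 5.09% and 5.10% of all genes tested.

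The other genes of these pathways were read from 3 lists of 83 genes, all of which were tested. In all, 12 fell and 1 rose, with a median log2 fold change of −0.07. Of 32 binding partners of the members, 6 fell and 1 rose. *Ppfia4*, a liprin that binds LAR-type phosphatases, measured 40.8, 48.9, 44.5 and 41.4 CPM in CDD replicates 1 to 4 and 53.9, 55.1, 60.7 and 59.2 CPM in ND replicates 1 to 4, without overlap, and fell by 0.38 (SE 0.060, edgeR adjusted p = 0.00142). *Clstn2*, a calsyntenin of the postsynaptic membrane, measured 53.7, 62.2, 60.5 and 64.5 CPM in CDD replicates 1 to 4 and 69.6, 75.9, 85.9 and 82.3 CPM in ND replicates 1 to 4 and fell by 0.38 (SE 0.066, edgeR adjusted p = 0.00314). Every CDD brain was below every ND brain in both genes. *Lin7a*, a small scaffold that pairs with MAGUKs, rose by 0.33 (SE 0.099, edgeR adjusted p = 0.0436), with 15.1, 16.2, 14.3 and 20.7 CPM in CDD and 14.0, 13.1, 12.1 and 13.4 CPM in ND replicates 1 to 4. The call of *Lin7a* was lost without CDD replicate 4, its highest brain, and without ND replicates 1, 3 or 4. Of 15 other postsynaptic genes 2 fell and 0 rose. These were *Baiap2*, which encodes a Shank-binding actin regulator, at −0.26 (SE 0.063, edgeR adjusted p = 0.0144), and *Frmpd4*, whose product binds MAGUKs, at −0.39 (SE 0.11, edgeR adjusted p = 0.0359). Of 36 other adhesion genes 4 fell and 0 rose, among them the contactin gene *Cntn6* at −0.39 (SE 0.096, edgeR adjusted p = 0.0169) and the pentraxin receptor gene *Nptxr* at −0.25 (SE 0.059, edgeR adjusted p = 0.0178). Without ND replicate 3 the number of called genes over the 3 lists was 3, without ND replicate 4 it was 4, without ND replicate 1 it was 5 and without CDD replicate 1 it was 6, in place of 13. Over all genes tested, 2.40%, 3.13%, 3.50% and 6.14% were called in these fits, in place of 8.83%.

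Markers of the cells that a whole embryonic brain holds were read beside these changes. Of 11 neuronal markers 3 fell and 0 rose: the synaptic vesicle and release genes *Snap25* (−0.23) and *Syp* (−0.18) and the growth cone gene *Gap43* (−0.18). The 11 summed to 6933 to 7740 CPM in CDD and 7141 to 7409 CPM in ND brains. The other 8 were not called: *Stmn2*, *Syt1*, *Rbfox3* and *Elavl3* were at log2 fold changes of −0.14, −0.07, −0.03 and −0.02, and *Tubb3*, *Dcx*, *Map2* and *Elavl4* at 0.02, 0.06, 0.09 and 0.17. Of 10 neural progenitor markers 5 rose and 0 fell. These were *Nes* (0.47), the proliferation genes *Top2a* (0.44) and *Mki67* (0.41), *Pax6* (0.25) and *Vim* (0.21). *Hes1*, *Hes5*, *Sox2*, *Slc1a3* and *Fabp7* were not called, at 0.23, 0.21, 0.09, 0.03 and −0.04. Over all genes tested, 4.59% were called lower and 4.24% higher. The 10 progenitor markers summed to 2077 to 2405 CPM in CDD and 1842 to 1962 CPM in ND brains, without overlap. No neuronal or progenitor marker was at 0 in any brain. The other lists had 1 higher and 1 lower call of 6 glial genes, 0 and 0 of 6 microglial, 0 and 1 of 5 endothelial, 1 and 2 of 5 meningeal, 0 and 0 of 4 choroid plexus and 2 and 0 of 9 erythroid genes. Of the 6 caudal genes found 2 were tested and 0 called. The part of the cell make-up in the members' changes was not tested. Without CDD replicate 2, the brain with caudal RNA, 9 members were called lower and 1 higher, against 3.99% and 3.15% of all genes tested.

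**Figure D4:**
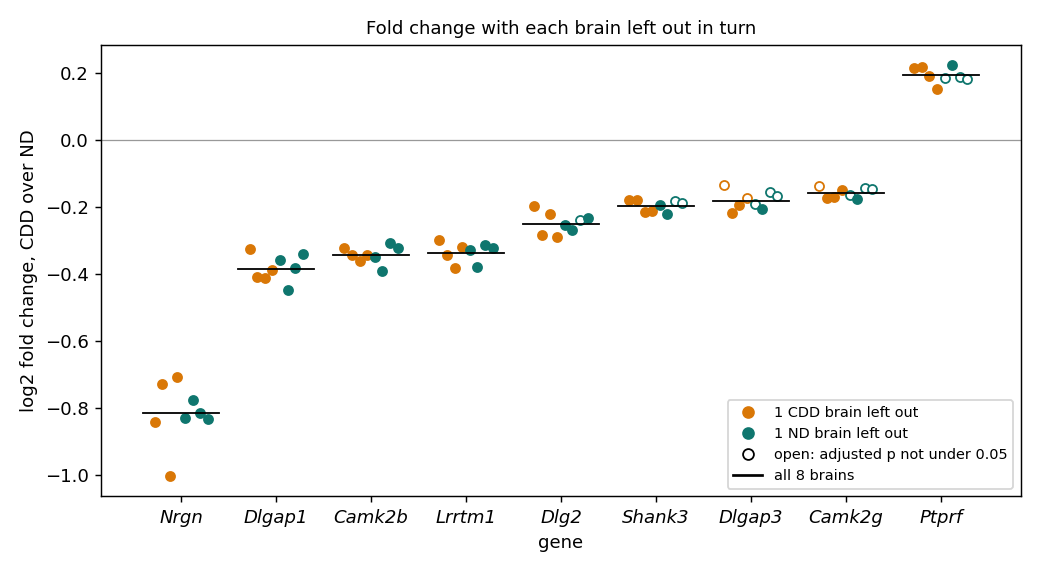
The vertical axis gives the log2 fold change of CDD over ND for the 9 called members with each brain left out in turn, 8 points per gene, and the black line the value from all 8 brains. Filled points were called, and open points were not. No point crosses 0, *Nrgn*, *Dlgap1*, *Camk2b* and *Lrrtm1* have filled points throughout, and *Dlgap3* has 5 open points.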

How the data were processed

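Poly-A RNA of 8 whole E14.5 brains was sequenced, and samples were grouped by the maternal diet in their labels. The authors deposited raw counts, not normalized, for each gene in each brain. Per the submitters' processing notes these were made with HISAT2 2.0.5 and featureCounts 1.5.0-p3. The genome build and strand setting were not given in the sources used here. Reads of overlapping or near-identical genes therefore cannot always be told apart. The deposited FPKM values were made by the authors from the counts and the listed gene length. The authors' own comparison (log2 fold change, p-value and adjusted p-value, with DESeq2 1.20.0 in the notes) and the shorter lists drawn from it were not used.

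The quasi-likelihood test of edgeR 4.0.16 (glmQLFit with robust estimation, glmQLFTest) was run on counts kept by filterByExpr and TMM-scaled, with diet as the single term and Benjamini-Hochberg adjustment over 19367 genes at 0.05. The common biological coefficient of variation was 0.0814. The members, the lists of other genes and the markers were chosen with earlier results of these data known. Members past the threshold are given by brain, as is, in groups without a call, the member with the highest level per length. From each list of other genes at most the 2 smallest p-values in each direction are named. Near-threshold *Lrrc4* was named after its values were seen. Promoters came from RefSeq (GRCm38.p6) and exon overlaps from GENCODE M21 (GRCm38). No member has the same start there as in the deposited table, so positions of genes are as deposited. The test was tried on simulated counts. Alternatives were DESeq2 1.42.0, limma-voom (limma 3.58.1), RLE and upper-quartile scaling, other filters, a block for replicate numbers, an offset for gene length (also with the block), *Xist* as a covariate, leaving out each brain, a threshold of 0.01 and limma on log2(FPKM + 1). R 4.3.3, Python 3.11.15, pandas 2.3.3 and matplotlib 3.10.9 were used.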

Additional observations from a re-analysis of the deposited data

Results flagged for a closer look

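Each of the 84 groups of 4 brains (42 genes in each diet) was searched for a brain far from the other 3 by Dixon's criterion. Chance passes about 1 group in 20, and 2 groups passed. *Camk2d* was lowest in ND replicate 2, at 61.2 CPM, where the other ND brains were at 66.8 to 67.3 CPM and the CDD brains at 58.2, 63.9, 56.4 and 57.6 CPM. *Ptprf* was highest in ND replicate 2, at 368.5 CPM, where the other ND brains were at 339 to 343 CPM and the CDD brains at 382, 379, 399.6 and 429.8 CPM. Without ND replicate 2, *Camk2d* was called lower and *Ptprf* was called higher in edgeR's quasi-likelihood test.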

How the results depend on the processing

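The 8 lower members and *Ptprf* were called under each of DESeq2, limma-voom, RLE and upper-quartile scaling, both other filters, the gene length offset and *Xist* as a covariate, with at most 3 further members. With limma on log2(FPKM + 1), 3 members were called, all 3 lower (*Camk2b*, *Nrgn*, *Lrrtm1*), and 3 of the 83 other pathway genes, against 2.68% of all genes tested. At a threshold of 0.01 the reported edgeR fit called 6 members and 3 other genes, against 2.46%. The other pathway genes called were 13 in the fit reported and 21 with the gene length offset (10.2% of all genes), and likewise 21 with the replicate block and that offset (9.87%). Over the 8 fits that left out a brain, 4 to 11 members were called, 4 to 9 of them lower, and 3 to 15 of the other pathway genes, with the fewest without ND replicate 3. The calls over all genes moved as well, from 471 of 19636 tested without ND replicate 3 to 2495 of 19664 without CDD replicate 3. *Lrrc4b* ranged from −0.086 to 0.0043 in these fits, the latter without CDD replicate 1. For the 9 called members and 6 uncalled ones given by brain, 300 values were computed under alternatives. Of these, 275 kept direction and side of the threshold, 24 lost the call and 1 turned direction. All 24 losses were among the called members. The 6 uncalled ones had edgeR adjusted p-values of 0.484 to 0.717 in the reported fit and stayed uncalled throughout. Outside these 15, *Lrrc4*, *Cadm2*, *Camk2d*, *Shank2*, *Homer2* and *Camk2a* were each called under 1 or more alternatives.

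Replicate numbers are shared by the diets, and the labels do not say whether they pair the brains. The deviations of same-numbered brains from their diet means correlated at 0.15, −0.22, 0.17 and 0.29. CDD replicates 1, 3 and 4 correlated best with the ND brain of their own number, and CDD replicate 2 with ND replicate 4 (0.29). CDD replicates 2 and 4 and ND replicate 4, which gave both values of 0.29, were the brains with high *Xist*. Deviations from means of 4 brains cannot decide whether the brains were paired. With the replicate block, 9 members were called, 8 of them lower, the same genes as without it. Over all 19367 genes tested, 1812 were called in that fit, 970 of them lower. The members with the fewest counts, *Nrgn*, *Il1rapl1* and *Lrrtm4*, also had the widest standard errors, 0.10 to 0.15 on the log2 scale. In *Il1rapl1* the spread differed between the diets, with an SD of 1.49 CPM in CDD and 0.166 CPM in ND brains.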
